A study of Mus musculus with 12 samples.

Results

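The Notch genes described here are 3 receptors (Notch1, Notch2 and Notch3), 3 ligands (Jag1, Jag2 and Dll1), the glycosyltransferase gene Lfng and 3 target genes (Hes1, Hey1 and Hey2). They were chosen by gene symbol, and all 10 were found among the 34763 gene names of the array. Expression was measured on 12 one-colour (Cy3) Agilent arrays of mouse skin cells, with 1 array per group, and neither separate animals nor pooling is stated in the labels. Aged (at least 22 months) and young (8 weeks) wild-type C57BL/6 mice each gave interfollicular epidermal cells (IFE, sorted as ITGA6-high and SCA1-high), total epidermal cells, and plucked and unplucked stem cells of the hair follicle (HFSCs, sorted as CD34-high, ITGA6-high and SCA1-negative). Col17a1 cKO mice, deleted from the K14 promoter that is active in basal keratinocytes, and wild-type control C57BL/6 mice were 12 weeks old, and each gave plucked and unplucked HFSCs. Both had received intraperitoneal tamoxifen (2 mg for 5 days), which the aged and young groups were not labelled to have had, and the strain of the cKO mice is not stated. Plucking was done by hand, 3 days before the HFSCs were taken.

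Notch receptors are membrane proteins that ligands of the Jagged and Delta families, displayed by neighbouring cells, bind and activate. Cleavage by ADAM proteases and then gamma-secretase frees the receptor's intracellular domain, which joins the DNA-binding protein RBPJ and Mastermind-like co-activators and switches on targets such as the HES and HEY repressor genes. In mouse epidermis the pathway is known for promoting the departure of keratinocytes from the basal layer and their spinous differentiation, and in the hair follicle for maintaining follicular fate.

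The array carried 1 probe for each of 7 of these genes and a pair of probes each for Notch1, Notch2 and Dll1. For a gene with a pair, the probe with the higher mean level was used. The level is the log2 of the processed intensity relative to the 75th percentile of its array, so 0 is that percentile and 1 unit is a doubling. It ranks arrays for 1 probe and does not rank genes. The second probes of the 3 genes are shown because they bear on how far a gene's value rests on its probe, and they are written 5′ to 3′ with their mm9 positions from the scanner files. The Notch1 probe lay at chr2:26319440-26319499 (minus strand), the Notch2 probe at chr3:97951233-97951292 (plus strand) and the Dll1 probe at chr17:15513726-15513785 (minus strand).

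Notch1 second probe: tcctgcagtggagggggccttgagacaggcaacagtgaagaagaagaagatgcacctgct

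Notch2 second probe: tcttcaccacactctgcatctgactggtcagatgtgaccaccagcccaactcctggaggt

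Dll1 second probe: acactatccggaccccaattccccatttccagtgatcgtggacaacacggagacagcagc

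These probes lay 4810, 2681 and 9103 bases from the start of the probe used for Notch1, Notch2 and Dll1. The file ties the Dll1 second probe to another transcript than the probe used. Over the 12 arrays the 2 probes of a gene correlated with r = 0.71 for Notch1, 0.73 for Notch2 and 0.65 for Dll1, as a description of arrays that share their amplification and labelling, with the second Dll1 probe well above background on only 6 of them. The 2 Notch2 probes were both lower in plucked than in unplucked HFSCs in 4 of 4 pairs, by -0.59 for the probe used and -1.08 for the second. The 2 Notch1 probes were higher in IFE than in unplucked HFSCs by 1.30 and 1.21. Of the plucking pairs, the second Dll1 probe measured the young one alone, at -1.90 in plucked and -1.80 in unplucked HFSCs, where the probe used had -1.77 in plucked and 0.12 in unplucked HFSCs.

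Of the 10 genes, 8 have a promoter window in the RefSeq table (build GRCm38.p6), which runs from 250 bases before the gene's start to 50 after it. A script looked in each window, on both strands, for TGGGAA, the core of the sequence that RBPJ is known to bind, and for the longer GTGGGAA. The shorter motif was in 25.6% of all 32851 windows, with 2 or more matches in 3.79%, and the longer one, which contains it, in 6.38%. Lfng and Hey2 held 2 matches each to the shorter motif, and the windows of Notch1, Notch2, Notch3, Jag1, Jag2 and Dll1 held none. The longer motif had 1 match in Lfng and 2 in Hey2. These 2 windows and that of Hes5 are shown because a listed member and a classical target carry the shorter motif. Hes5, a HES gene, held 2 matches to each motif. The matches are in capitals. They start 135 and 108 bases before the Lfng start, 207 and 3 bases before the Hey2 start and 226 and 82 bases before the Hes5 start. The positions are chr5:140607091-140607390 (plus strand) for Lfng, chr10:30842734-30843033 (minus strand) for Hey2 and chr4:154960673-154960972 (plus strand) for Hes5.

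Lfng: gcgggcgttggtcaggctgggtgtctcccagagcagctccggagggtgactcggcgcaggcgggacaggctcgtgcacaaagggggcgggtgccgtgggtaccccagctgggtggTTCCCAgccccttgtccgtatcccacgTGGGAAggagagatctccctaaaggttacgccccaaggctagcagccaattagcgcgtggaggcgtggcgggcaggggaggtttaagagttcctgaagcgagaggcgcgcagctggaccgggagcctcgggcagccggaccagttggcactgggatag

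Hey2: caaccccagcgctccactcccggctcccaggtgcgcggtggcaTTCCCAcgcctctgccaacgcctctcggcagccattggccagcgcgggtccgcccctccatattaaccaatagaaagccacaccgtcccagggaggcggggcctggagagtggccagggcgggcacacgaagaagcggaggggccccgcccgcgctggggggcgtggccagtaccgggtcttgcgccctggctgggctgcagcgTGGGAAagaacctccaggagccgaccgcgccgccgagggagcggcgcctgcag

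Hes5: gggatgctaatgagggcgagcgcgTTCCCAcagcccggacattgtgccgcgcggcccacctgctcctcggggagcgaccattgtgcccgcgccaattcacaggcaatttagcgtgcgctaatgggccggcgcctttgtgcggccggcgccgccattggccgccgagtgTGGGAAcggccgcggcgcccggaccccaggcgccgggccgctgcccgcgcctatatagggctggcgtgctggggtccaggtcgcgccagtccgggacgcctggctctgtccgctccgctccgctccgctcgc

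A match is a description of these letters and says nothing of binding. The 3 windows went with unlike levels. Lfng ranged between 0.56 and 4.56 over the 12 arrays, Hes5 stayed between 0.91 and 2.14, and Hey2 was well above background on 1 array.

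The arrays had between 49.7% and 65.0% of their spots well above background and no array was a copy of another. Each array correlated with the others at a median r of between 0.888 and 0.930, and lowest for the unplucked control and cKO HFSCs. Lhx2, a hair follicle stem cell regulator, went with the sort: it lay between 5.80 and 6.45 on the HFSC arrays and between -2.57 and 2.04 on the epidermal arrays. Col17a1, the gene deleted in the cKO, had levels of 5.79 in plucked and 7.0 in unplucked cKO HFSCs, against 6.22 in plucked and 7.31 in unplucked control HFSCs, and the sources used here do not say which exons were deleted. The young and aged arrays were on 1 slide, in a row each, and the HFSC, plucked HFSC, total and IFE arrays in a column each, so age and row, and cell population and column, cannot be told apart. Control and cKO arrays shared 1 row of a second slide, control in columns 1 and 2 and cKO in columns 3 and 4. Genotype and column cannot be told apart there.

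The level of each gene on every array is plotted first.

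**Figure D1:**
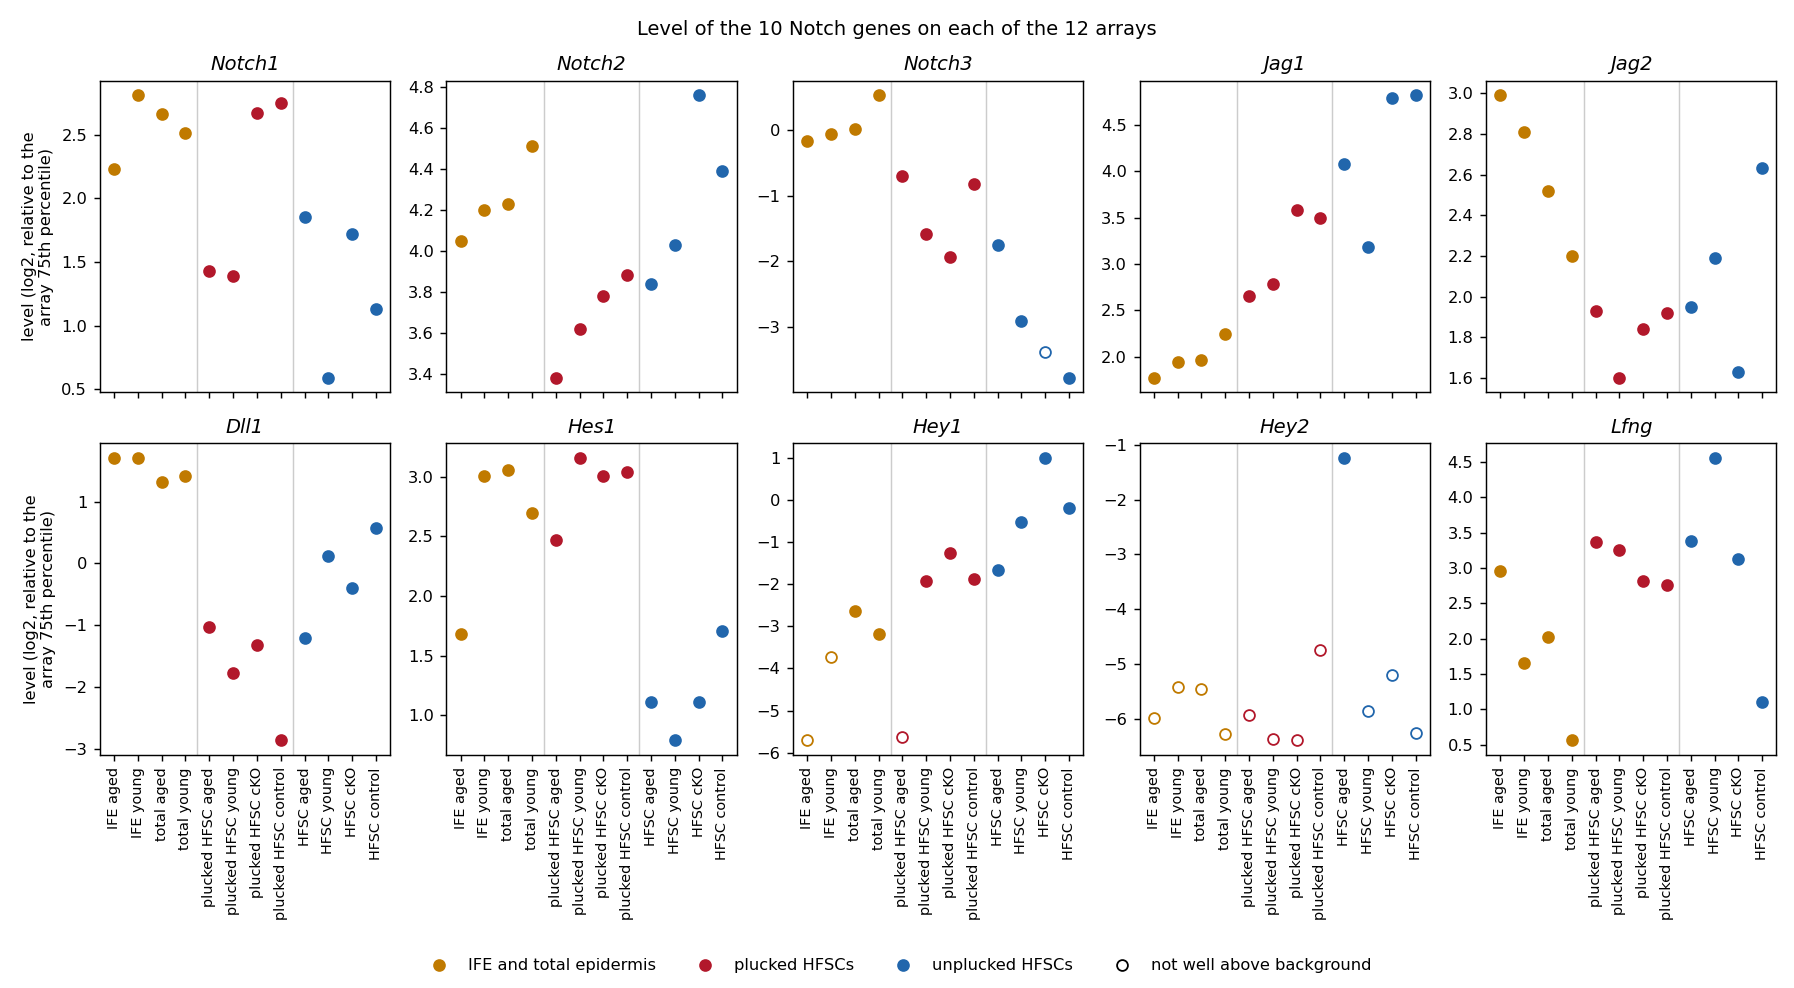
Level of the 10 Notch genes (y axis, log2 relative to the array's 75th percentile) on each of the 12 arrays (x axis), 1 point per array, open where the probe was not well above background. Jag1 was highest in HFSCs and Notch3 and Dll1 in epidermal cells, Hes1 was higher on all 4 plucked than on all 4 unplucked HFSC arrays, and Hey2 was above background on 1 array.

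Among the receptors, Notch3 varied most with cell population. Its levels were -0.17 in aged and -0.06 in young IFE, and 0.01 in aged and 0.53 in young total epidermis. In plucked HFSCs they were -0.70 (aged), -1.58 (young), -1.94 (cKO) and -0.82 (control). In unplucked HFSCs they were -1.75 (aged), -2.91 (young), -3.38 (cKO, not well above background) and -3.78 (control). All 4 epidermal arrays thus lay above all 8 HFSC arrays, and the plucked array was above the unplucked one in 4 of 4 pairs, although the aged unplucked value lay above the plucked cKO value. In cKO HFSCs, where the unplucked value is a bound, Notch3 was at least 2.10-fold higher after plucking.

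Notch1, the receptor best known in the basal and suprabasal epidermis, had levels of 2.23 and 2.81 in aged and young IFE and of 2.66 and 2.51 in aged and young total epidermis. Plucked HFSCs had 1.43 (aged), 1.39 (young), 2.67 (cKO) and 2.75 (control). Unplucked HFSCs had 1.85 (aged), 0.59 (young), 1.72 (cKO) and 1.13 (control). The epidermal arrays lay above all unplucked HFSC arrays but overlapped the plucked ones, of which cKO and control were as high as epidermis. With the probe used, plucked was above unplucked in the young, cKO and control pairs and below it in the aged pair. With the second Notch1 probe, plucked was below unplucked in the young pair (-0.46 against -0.23) and above it in the others, the aged pair included (0.03 against -0.77).

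With the probes used, Notch2 was the steadiest receptor, with an SD of 0.39 over the 12 arrays. Only 19.6% of the 19196 genes well above background on at least 10 arrays had a smaller SD. Aged and young IFE had 4.05 and 4.20, and aged and young total epidermis 4.23 and 4.51. Plucked HFSCs had 3.38 (aged), 3.62 (young), 3.78 (cKO) and 3.88 (control), against 3.84, 4.03, 4.76 and 4.39 in the unplucked HFSCs of the same mouse types. Every plucked array was below its unplucked partner, and the groups overlapped only where plucked control exceeded unplucked aged. The second Notch2 probe spread more widely, from -2.15 in plucked to 0.23 in unplucked cKO HFSCs.

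Among the ligands, Jag1 was the one with the higher level in HFSCs. Aged and young IFE had 1.77 and 1.94, and aged and young total epidermis 1.96 and 2.24. Plucked HFSCs had 2.65 (aged), 2.78 (young), 3.58 (cKO) and 3.50 (control), against 4.08, 3.18, 4.79 and 4.82 in unplucked HFSCs. All 8 HFSC arrays lay above the 4 epidermal arrays, and each plucked array lay below its unplucked partner.

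Dll1, a Delta ligand known in human epidermis from clustered basal cells, showed the opposite order of populations. Aged and young IFE had 1.71 and 1.70, and aged and young total epidermis 1.31 and 1.41. Plucked HFSCs had -1.02 (aged), -1.77 (young), -1.32 (cKO) and -2.86 (control), against -1.21, 0.12, -0.39 and 0.58 in unplucked HFSCs. All epidermal arrays were above all HFSC arrays. The second Dll1 probe gave -1.73 to -1.55 on the epidermal arrays, above the plucked (-1.90) and unplucked (-1.80) young HFSCs, and was not well above background on the other HFSC arrays. In young mice its difference was small, with -1.62 in IFE and -1.73 in total epidermis against -1.80 in unplucked HFSCs. The probe used had 1.70 and 1.41 against 0.12 there.

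Jag2 varied little. It had 2.99 and 2.81 in aged and young IFE and 2.52 and 2.20 in aged and young total epidermis. Plucked HFSCs had 1.93 (aged), 1.60 (young), 1.84 (cKO) and 1.92 (control), against 1.95, 2.19, 1.63 and 2.63 in unplucked HFSCs. IFE lay above every HFSC array, and the total epidermis overlapped the unplucked HFSCs.

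Lfng encodes a fringe enzyme that adds sugars to Notch receptors and alters which ligands activate them. Aged and young IFE had 2.96 and 1.66, and aged and young total epidermis 2.02 and 0.56. Plucked HFSCs lay close together at 3.37 (aged), 3.25 (young), 2.81 (cKO) and 2.76 (control). Unplucked HFSCs spread widely, at 3.38 (aged), 4.56 (young), 3.13 (cKO) and 1.11 (control). The unplucked control value lay within the epidermal range, as did the plucked cKO and control values.

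Hes1, a repressor gene that Notch activates in many tissues, had levels of 1.68 and 3.01 in aged and young IFE and of 3.06 and 2.70 in aged and young total epidermis. Plucked HFSCs had 2.47 (aged), 3.16 (young), 3.01 (cKO) and 3.04 (control), against 1.11, 0.79, 1.11 and 1.71 in unplucked HFSCs. The plucked arrays lay wholly above the unplucked ones, and aged IFE alone among the epidermal arrays was at the height of an unplucked HFSC array.

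Hey1, a related repressor gene, ran the other way. It was not well above background in aged or young IFE (measured at -5.71 and -3.74) and had -2.63 and -3.17 in aged and young total epidermis. Plucked HFSCs had -5.64 (aged, not well above background), -1.93 (young), -1.25 (cKO) and -1.88 (control), against -1.65, -0.53, 1.01 and -0.18 in unplucked HFSCs. Each plucked array lay below its unplucked partner, and in aged HFSCs, where the plucked value is a bound, Hey1 was at least 4.23-fold lower after plucking.

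Hey2 was well above background in unplucked aged HFSCs alone, at -1.23. The other 11 arrays measured between -6.40 and -4.74 and are not ordered. Its level in unplucked aged HFSCs was at least 5.48-fold above that in unplucked young HFSCs, a comparison of 1 array with 1. Because the fits kept genes well above background on at least 2 of their arrays, Hey2 was in no fit, and 9 of the 10 genes were tested in each.

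Plucking is known to push resting follicles into growth, and the first comparison asked how the HFSC profile differed 3 days later. Across the 4 mouse types Hes1 and Notch3 were higher and Hey1, Jag1 and Notch2 lower in plucked HFSCs, each in 4 of 4 pairs. None of the 9 passed the adjusted threshold in the fit of 8 HFSC arrays with terms for mouse type and plucking (limma, Benjamini-Hochberg over all genes), which called 0.499% of the 25428 genes tested and 0 genes without any 1 of the 4 pairs. Hes1 came nearest, with means of 2.92 in plucked and 1.18 in unplucked HFSCs, a difference of 1.74 ± 0.29 (SE), or 3.34-fold, and an adjusted p of 0.0794 (limma).

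Notch3 averaged -1.26 in plucked and -2.95 in unplucked HFSCs, 3.24-fold higher, with an adjusted p of 0.132 (limma). With normexp background correction, which lifts dim signals by an offset, its difference was 0.77. Hey1 averaged -2.67 in plucked and -0.34 in unplucked HFSCs, a difference of -2.34 ± 0.49 with an adjusted p of 0.114 (limma). That value uses the dim plucked aged array as measured: it was -1.79 without the aged pair and -1.05 with normexp correction (limma adjusted p = 0.0427). The Jag1 means were 3.13 in plucked and 4.22 in unplucked HFSCs, 2.13-fold lower (limma adjusted p = 0.158), and the Notch2 difference was -0.59 ± 0.24 (limma adjusted p = 0.299). Dll1 was lower in 3 of 4 pairs, by -1.52 ± 0.62, and Notch1 higher in 3 of 4, by 0.74 ± 0.39. Jag2 differed by -0.28 ± 0.28 and Lfng by 0.00 ± 0.51.

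The 2 genes higher and 3 lower in every pair compare with 14.0% and 15.2% of all genes tested. Hes1 alone had groups that did not overlap, as did 6.28% of all genes in that direction and 4.42% in the other. The median difference of the 9 was -0.28, against -0.06 over all genes. An unadjusted p under 0.05 was found for 4 of the 9 and for 4463 of the 25428 genes tested. Within slide 1 (aged and young) and slide 2 (cKO and control) the differences were 1.87 and 1.61 for Hes1, 1.19 and 2.20 for Notch3, -2.70 and -1.98 for Hey1, and -0.91 and -1.27 for Jag1. Lfng gave -0.66 on slide 1 and 0.66 on slide 2.

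**Figure D2:**
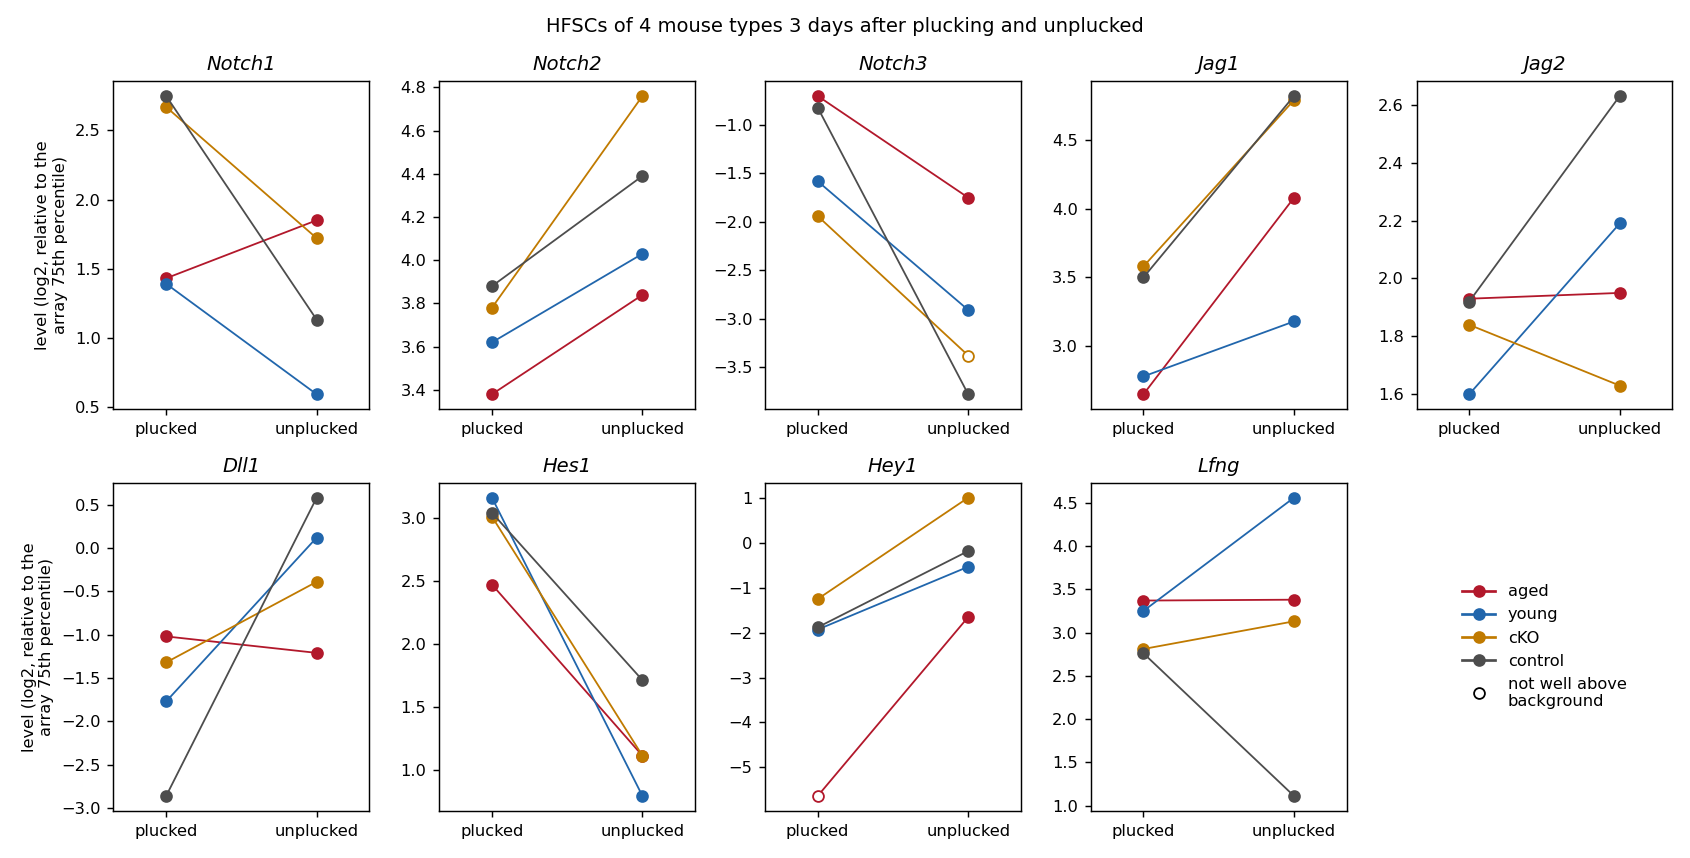
Level (y axis, log2 relative to the array's 75th percentile) of the 9 tested genes in plucked and unplucked HFSCs, with a line joining the 2 arrays of each mouse type and open points where the probe was not well above background. The 4 Hes1 lines and the 4 Notch3 lines are higher at the plucked end, those of Notch2, Jag1 and Hey1 are lower there, and the Lfng line of the control mice runs against that of the young mice.

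Marker lists were read beside these values. Of the 8 lists, that of melanocytes alone had groups that did not overlap. Its 6 genes summed to 0.62 to 1.28 (log2) in plucked and 1.99 to 2.70 in unplucked HFSCs, with Tyrp1 not well above background on any array. The summed level of the 9 follicle stem cell markers was 8.08 to 8.66 in plucked and 8.48 to 9.10 in unplucked HFSCs. Cd34, the sorting marker, was between 3.62 and 4.39 in plucked and between 5.62 and 6.68 in unplucked HFSCs. Mki67, a marker of dividing cells, was between 4.19 and 5.41 in plucked and between -0.28 and 2.39 in unplucked HFSCs. The part of these in the Notch gene differences was not tested. In cells sorted in bulk, fewer cells of a type and less RNA per cell cannot be told apart.

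The plucking difference itself was compared between aged and cKO HFSCs and young and control HFSCs. With the probe used, Dll1 differed most, by 2.29 ± 0.83, since its plucked minus unplucked values were 0.19 (aged) and -0.93 (cKO) against -1.89 (young) and -3.44 (control). Its unadjusted p was 0.0462 and its adjusted p 0.999 (limma). The second Dll1 probe measured the young pair alone, at -1.90 plucked and -1.80 unplucked. The fit called 0% of the 25428 genes tested, with 1146 of them at an unadjusted p under 0.05. The other 8 genes differed by between -1.58 (Hey1, -0.72 without the aged pair) and 0.74 (Jag2).

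The second comparison asked how epidermal cells differ from unplucked HFSCs in young and aged mice, in 6 arrays with terms for population and age. Notch3, Dll1, Notch1 and Hes1 were higher and Hey1, Jag1 and Lfng lower in both IFE and total epidermis. None of the 9 tested genes passed the adjusted threshold, in fits that called 4.73% (IFE) and 3.89% (total epidermis) of the 23961 genes tested.

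In IFE against HFSCs, Dll1 by the probe used had means of 1.70 and -0.55, a difference of 2.25 ± 0.43, or 4.75-fold, with an adjusted p of 0.0673 (limma). Notch3 was 4.64-fold higher in IFE, with means of -0.11 against -2.33 and an adjusted p of 0.0872 (limma). Hey1, well above background in both HFSC arrays and in neither IFE array, was at least 5.38-fold lower in IFE, with measured means of -4.73 in IFE and -1.09 in HFSCs and an adjusted p of 0.0562 (limma). The Jag1 means were 1.86 in IFE and 3.63 in HFSCs, 3.42-fold lower (limma adjusted p = 0.0934). The differences of the other genes were 1.40 ± 0.52 for Hes1, 1.30 ± 0.50 for Notch1, 0.83 ± 0.30 for Jag2, 0.19 ± 0.26 for Notch2 and -1.65 ± 0.74 for Lfng.

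In total epidermis against HFSCs, Notch3 stood highest, with means of 0.27 and -2.33, a 6.06-fold difference, and an adjusted p of 0.0672 (limma). Dll1 was, by the probe used, 3.75-fold higher (limma adjusted p = 0.0994) and Hes1 3.83-fold higher (limma adjusted p = 0.136). Lfng was 6.39-fold lower, with means of 1.29 in total epidermis and 3.97 in HFSCs (limma adjusted p = 0.143). Jag1 differed by -1.53 ± 0.40, Hey1 by -1.81 ± 0.65, Notch1 by 1.36 ± 0.50, Notch2 by 0.44 ± 0.26 and Jag2 by 0.29 ± 0.30.

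In each of the 2 comparisons, which share the HFSC arrays, 6 genes were higher and 3 lower without overlap between the groups. Over all genes these shares were 25.9% and 20.5% for IFE and 26.1% and 21.9% for total epidermis, so groups of 2 arrays separate often. The unadjusted p was under 0.05 for 6 of the 9 genes in IFE and for 7 in total epidermis. Of the 23961 genes tested it was so for 4823 and 4982. The median difference of the 9 was 0.83 in IFE and 0.44 in total epidermis, against 0.09 and 0.07 over all genes.

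**Figure D3:**
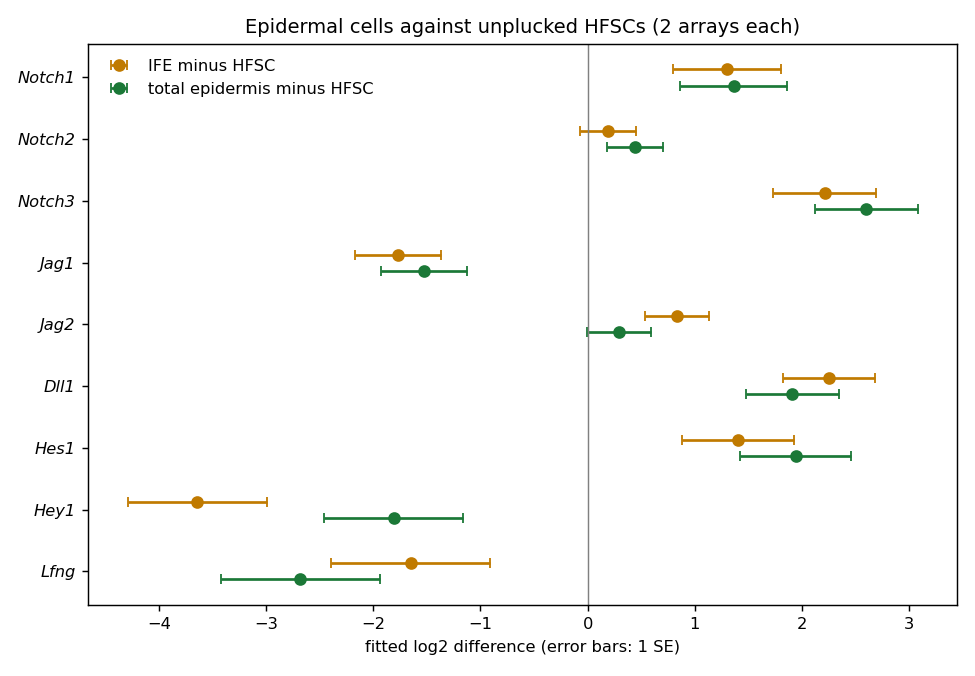
Fitted log2 difference (x axis, with 1 SE as error bar) of IFE and of total epidermis from unplucked HFSCs for the 9 tested genes, from 2 arrays of each population. Notch1, Notch3, Dll1 and Hes1 lie right of 0 and Jag1, Hey1 and Lfng left of it in both populations, and Notch2 and Jag2 lie nearer 0.

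Marker lists of other cells differed between the same 6 arrays. The follicle stem cell markers summed to 6.22 to 6.47 in IFE and 6.40 to 6.41 in total epidermis, against 8.48 to 8.80 in unplucked HFSCs. The 7 epidermal markers, Krt1 among them, summed to 7.38 to 7.63 in IFE and 7.68 to 8.44 in total epidermis. They summed to 7.0 to 7.48 in unplucked HFSCs, which overlapped IFE. The 6 fibroblast markers summed to -1.29 to -0.85 in IFE and -0.65 to -0.31 in total epidermis, against 3.70 to 4.15 in unplucked HFSCs, with Lum and Pdgfra not well above background on any array. The 4 T cell markers with a probe summed to 2.33 to 2.93 in total epidermis, -0.33 to 0.22 in IFE and -0.58 to 0.19 in unplucked HFSCs. The 6 Langerhans and myeloid cell markers summed to 4.58 to 4.66 in IFE and 4.89 to 5.44 in total epidermis, against 4.39 to 4.45 in unplucked HFSCs. The 6 melanocyte markers summed to 0.91 to 1.63 in IFE and 0.96 to 1.62 in total epidermis, against 1.99 to 2.03 in unplucked HFSCs.

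For vessel cells, in which Notch3 (mural) and Hey1 and Hey2 (endothelial) are known to be expressed, the mural markers Rgs5 and Des were not well above background on any array. The endothelial Cdh5 was well above background on 1 array, aged total epidermis. Other members of both lists were measured. Of the 6 mural markers, 3 to 4 were well above background on the IFE and unplucked HFSC arrays, and 4 on the total epidermis and plucked HFSC arrays. Of the 6 endothelial markers, 1 to 2 were so in IFE, 2 in total epidermis, 2 to 4 in plucked and 1 to 4 in unplucked HFSCs. The 6 mural markers summed to 1.48 to 1.93 in IFE, 1.33 to 1.81 in total epidermis, 2.40 to 2.88 in plucked and 2.11 to 3.04 in all 4 unplucked HFSCs. The 6 endothelial markers summed to 1.78 to 1.86 in IFE, 1.69 to 1.74 in total epidermis, 1.82 to 2.10 in plucked and 1.5 to 2.82 in all 4 unplucked HFSCs. The part of other cells in the differences between populations was not tested.

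Between IFE and total epidermis no gene passed. Of the 9 genes, by the probes used, 3 were higher and 4 lower in IFE in both pairs, against 28.5% and 23.4% of all genes. Limma called 0% of the 23961 genes tested here, with 977 at an unadjusted p under 0.05. Hey1, well above background in both total epidermis arrays and in neither IFE array, was at least 1.53-fold lower in IFE, with measured means of -4.73 in IFE and -2.90 in total epidermis. Lfng differed by 1.02 ± 0.74 and Jag2 by 0.54 ± 0.30, and the adjusted p of all 3 was 1.0 (limma).

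The study's title concerns ageing of the follicle through loss of COL17A1, and the third comparison set aged against young HFSCs, plucked and unplucked. With the probes used, Notch1 and Notch3 were higher and Hey1 and Notch2 lower in aged HFSCs in both pairs, and no gene passed the adjusted threshold. The second Notch1 probe was lower in unplucked aged than young HFSCs (-0.77 against -0.23) and higher in plucked ones (0.03 against -0.46). The second Notch2 probe was higher in aged HFSCs in both pairs (-0.81 against -1.1 unplucked and -1.13 against -1.31 plucked). For Notch3 the aged minus young difference was 1.16 unplucked and 0.88 plucked, and the fit gave 1.02 ± 0.55 (limma adjusted p = 0.932). Notch1 gave 1.26 unplucked and 0.04 plucked, with a fitted 0.65 ± 0.55. Hey1 gave -1.12 unplucked, and in plucked HFSCs, where the aged value is a bound, it was at least 3.47-fold lower in aged mice, and 10.1% of genes were at least 2-fold lower in that pair of arrays.

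The Hey1 fit gave -2.41 ± 0.69 with an unadjusted p of 0.0161 and an adjusted p of 0.932 (limma), from the dim plucked aged value as measured. With normexp correction it was -0.74 (limma adjusted p = 0.809). Notch2 differed by -0.21 ± 0.34, Jag1 by 0.38 ± 0.40, Jag2 by 0.05 ± 0.39, Dll1 by -0.29 ± 0.88, Hes1 by -0.18 ± 0.41 and Lfng by -0.53 ± 0.73. Lfng and Dll1 were lower in unplucked aged HFSCs (by -1.19 and -1.33) and not in plucked ones (0.13 and 0.75). By the probes used, the 2 genes higher and 2 lower in both pairs compare with 30.0% and 25.8% of all genes. The fit called 0% of 25428, with 1227 at an unadjusted p under 0.05. Beside the Hey2 signal in unplucked aged HFSCs, 18.5% of genes were at least 2-fold higher in that 1 array than in the unplucked young one.

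In epidermal cells the age comparison went with Lfng. Its levels were 2.96 in aged and 1.66 in young IFE, and 2.02 in aged and 0.56 in young total epidermis, so both aged arrays were above both young ones. The same held for 21.9% of all genes tested. The fitted difference was 1.38 ± 0.24, or 2.60-fold, with an unadjusted p of 0.00444 and an adjusted p of 0.605 (limma). Hes1 was lower in aged than young IFE (1.68 against 3.01) and not in total epidermis (3.06 against 2.70), and the fit gave -0.49 ± 0.48. Notch2, Notch3 and Jag1 were lower in aged cells in both pairs, by -0.22 ± 0.24, -0.31 ± 0.26 and -0.23 ± 0.24, and Jag2 higher by 0.25 ± 0.24. The second Notch2 probe was higher in aged than young IFE (-0.55 against -0.72) and lower in aged than young total epidermis (-0.69 against -0.57). By the probes used, the 2 genes higher and 3 lower in both pairs compare with 30.6% and 24.1% of all genes. The fit, on 4 arrays, called 0% of 22825 genes, with 1488 at an unadjusted p under 0.05.

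The fourth comparison set Col17a1 cKO against control HFSCs. Lfng and Hey1 were higher and Hes1 and Jag2 lower in cKO HFSCs in both pairs, and none passed the adjusted threshold. Lfng had 3.13 in unplucked cKO against 1.11 in unplucked control HFSCs, and 2.81 in plucked cKO against 2.76 in plucked control HFSCs, so its fitted 1.03 ± 0.73 rested on the unplucked pair (limma adjusted p = 0.852). Hey1 had 1.01 in unplucked cKO against -0.18 in unplucked control HFSCs, and -1.25 in plucked cKO against -1.88 in plucked control HFSCs, a fitted 0.91 ± 0.69 (limma adjusted p = 0.862). Jag2 differed by -0.54 ± 0.39 and Hes1 by -0.31 ± 0.41.

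With the probes used, the receptors differed by 0.25 ± 0.55 (Notch1), 0.14 ± 0.34 (Notch2) and -0.36 ± 0.55 (Notch3), and Jag1 by 0.02 ± 0.40. The second Notch1 probe was higher in cKO HFSCs in both pairs (-0.02 against -0.91 unplucked and 0.36 against 0.01 plucked). Dll1 was lower in unplucked (-0.97) and higher in plucked (1.54) cKO HFSCs. The 2 genes higher and 2 lower in both pairs, by the probes used, compare with 23.9% and 25.7% of all genes. The fit called 0% of the 25428 genes tested, with 1646 at an unadjusted p under 0.05, and none of the 9 Notch genes was among these.

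**Figure D4:**
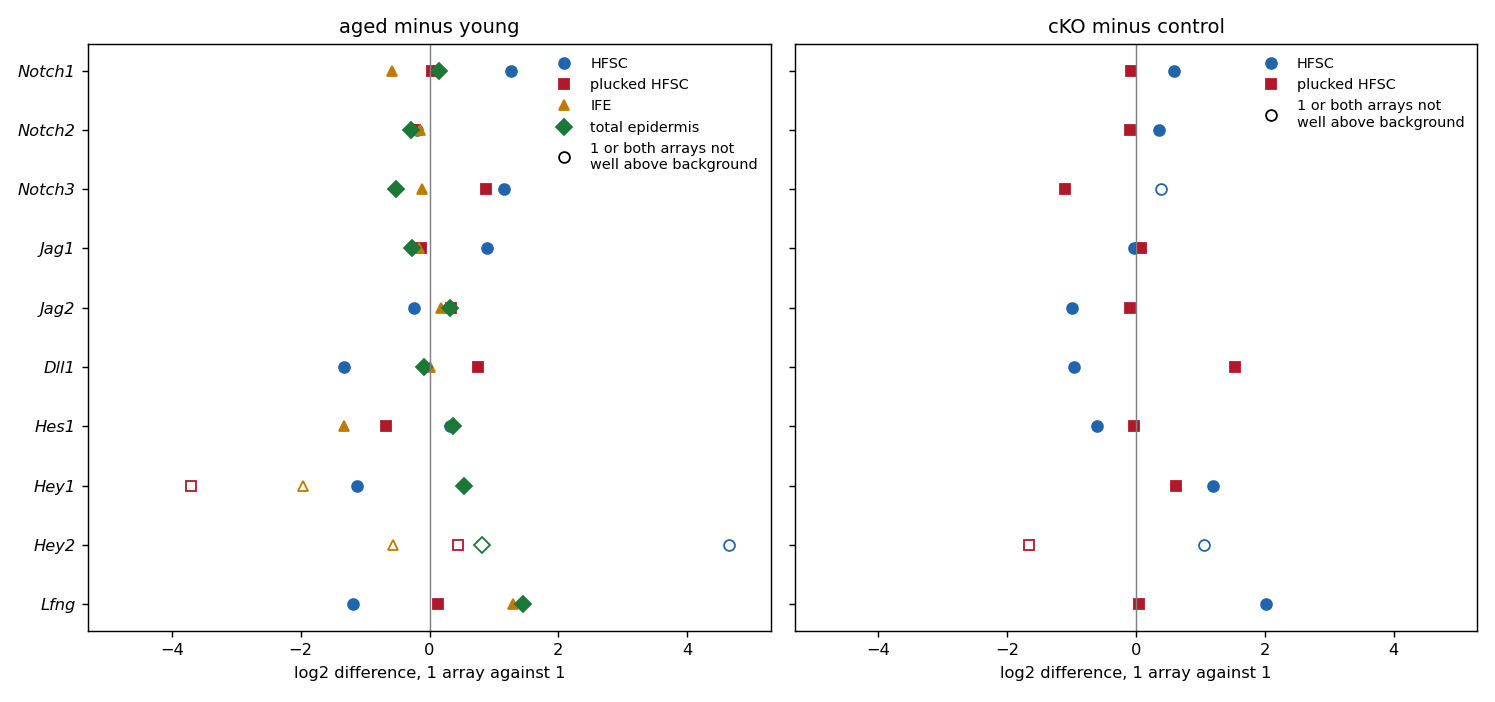
Log2 differences (x axis) of aged minus young arrays in 4 cell samples and of cKO minus control arrays in 2, each a single array against a single array, with open points where 1 or both arrays were not well above background. Most points lie within 1 unit of 0, Lfng is right of 0 in both aged epidermal samples, and Hey1 is left of 0 in both aged HFSC samples and right of 0 in both cKO samples.

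Control HFSCs were also set against young HFSCs, which differ in tamoxifen, in age and in slide, and these cannot be told apart. Jag1 was higher in control HFSCs by 1.18 ± 0.40 and Lfng lower by -1.97 ± 0.73, with unadjusted p-values of 0.0301 and 0.0403 and an adjusted p of 0.571 for both (limma). By the probes used, 5 genes were higher and 1 lower in both pairs, against 30.7% and 28.6% of all genes. The fit called 0% of the 25428 genes tested, with 2220 at an unadjusted p under 0.05.

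The rest of the pathway was taken from 7 lists holding 71 genes in all, the members included, of which 70 have a gene name on the array. In total epidermis against HFSCs 3 of the 64 genes tested rose and 1 fell, beside 1.87% and 2.02% of all genes. Those that rose were Nrarp, a direct Notch target that dampens the signal (4.99-fold, adjusted p = 0.0377), Krt1, a keratin of spinous cells (4.48-fold, adjusted p = 0.0383), and Cdkn1a, a cell cycle inhibitor that Notch1 induces in mouse keratinocytes (5.22-fold, adjusted p = 0.0448, all limma). The gene that fell was Dtx3, of the Deltex family (3.99-fold, limma adjusted p = 0.0372). In IFE against HFSCs 1 of 64 rose, Krt1 (4.36-fold, limma adjusted p = 0.0337), and 1 fell, again Dtx3 (5.11-fold, limma adjusted p = 0.0221), beside 2.1% and 2.64% of all genes. With no filter on dim genes Dtx3 in IFE was still called (limma adjusted p = 0.049) and the other 5 of these calls were lost. The call of Krt1 in total epidermis was also lost on scaling to the array median, and that of Cdkn1a with the mean over its probes.

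By list, in total epidermis 2 of the 9 epidermal outputs and 1 of the 8 HES and HEY family targets tested rose, and 1 of the 10 receptor regulators fell. None of the 10 receptors and ligands, 9 glycosylation and ligand processing genes, 8 cleavage genes or 10 nuclear complex genes passed. Maml2, a Mastermind-like co-activator gene, had a mean of -1.62 in total epidermis and 0.38 in HFSCs (limma adjusted p = 0.0566). Gata3, a differentiation regulator, had 4.08 in IFE and 2.10 in HFSCs (limma adjusted p = 0.0522). The median difference of all 64 was 0.11 in IFE and -0.05 in total epidermis, against 0.09 and 0.07 over all genes.

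In plucked against unplucked HFSCs none of the 66 pathway genes tested passed the threshold. Nrarp had the largest difference, with 2.90 (aged), 2.05 (young), 2.07 (cKO) and 3.17 (control) in plucked HFSCs, against 0.40, 0.28, -3.42 (not well above background) and -0.52 in unplucked ones. Like Hes1, it lay higher on every plucked array, by 3.36 ± 0.65 (limma adjusted p = 0.102). That difference includes the dim unplucked cKO value, and it was 2.65 without the cKO pair, 2.13 within slide 1 and 4.59 within slide 2. Cdkn1a also did not overlap, with -0.25 to 0.25 in plucked and -2.15 to -0.26 in unplucked HFSCs (limma adjusted p = 0.157). Hdac1, a histone deacetylase gene, was higher by 1.18 ± 0.27 (limma adjusted p = 0.129).

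Dlk2, a non-canonical Delta-like gene, had 0.35 to 0.77 in plucked and 1.56 to 2.93 in unplucked HFSCs (limma adjusted p = 0.102), and Dtx3 -0.70 to 0.41 against 0.77 to 2.52 (limma adjusted p = 0.179). Over the 66 genes, 12 were higher and 14 lower in every pair, beside 14.0% and 15.2% of all genes, and their median difference was -0.13, against -0.06 over all genes.

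**Figure D5:**
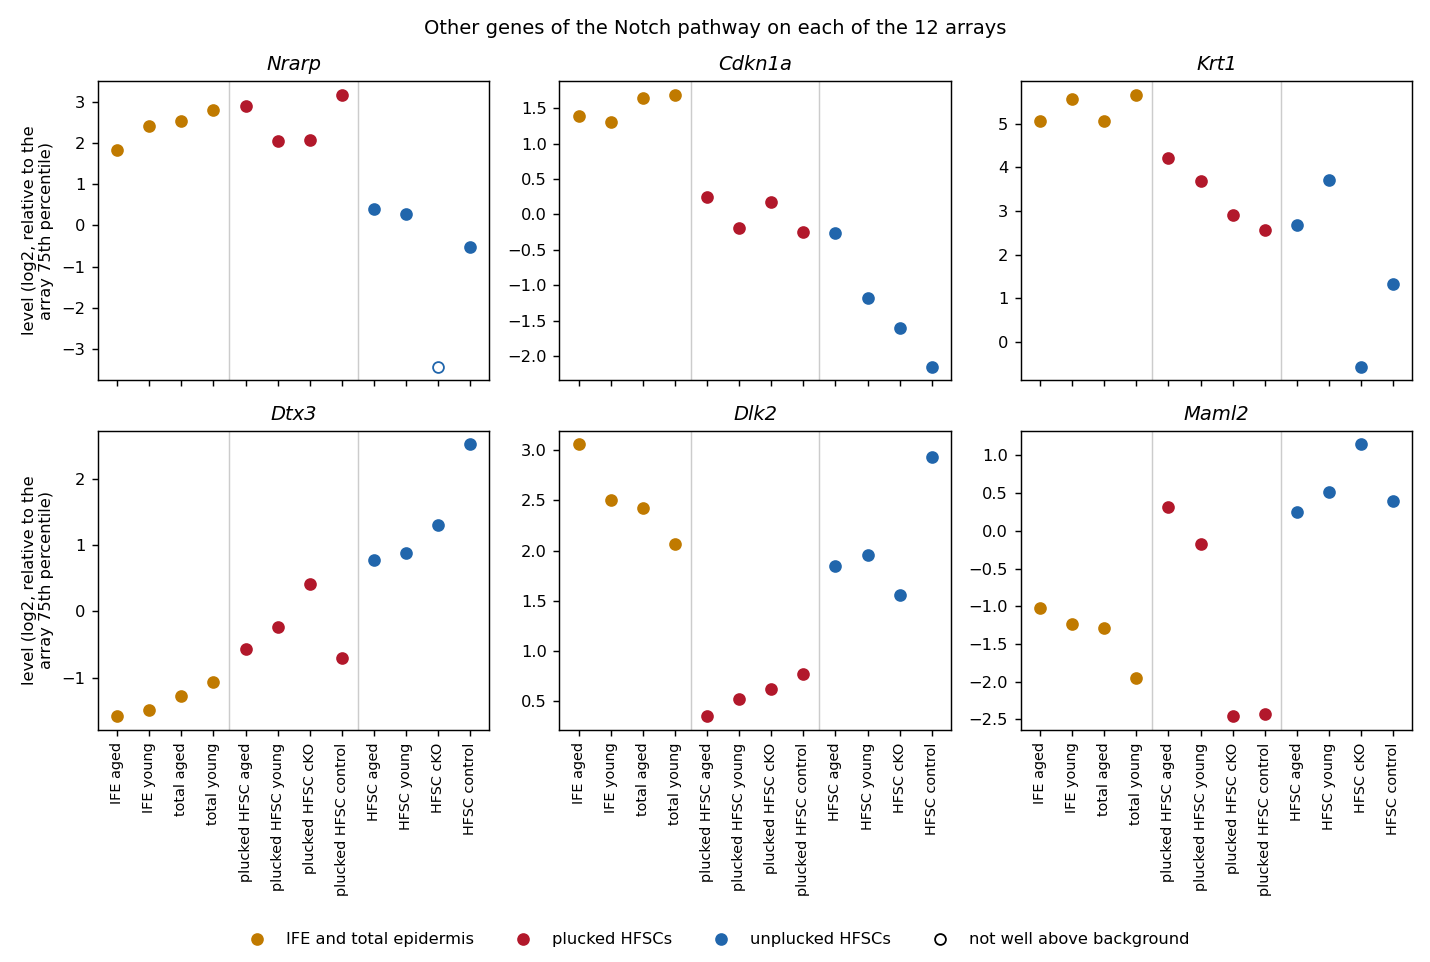
Level (y axis, log2 relative to the array's 75th percentile) of 6 other pathway genes on each of the 12 arrays (x axis), 1 point per array, open where not well above background. Nrarp and Cdkn1a are higher in the epidermal and plucked HFSC arrays than in the unplucked HFSC arrays, Dtx3 runs the other way, and Dlk2 is lowest in the plucked HFSCs.

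In the age and cKO comparisons no pathway gene passed. Of the genes outside the 10, Dtx4 (1.86 ± 0.67) and Fbxw7 (-1.30 ± 0.60), a ubiquitin ligase gene for cleaved Notch, differed in one direction in both pairs of aged and young HFSCs. The adjusted p was 0.932 for both (limma). In cKO against control HFSCs, Psen2, of gamma-secretase, was well above background on both cKO and neither control array and at least 3.19-fold higher (limma adjusted p = 0.691). Nrarp differed by -2.0 ± 0.92, with the unplucked cKO array not well above background, and Poglut1, a glucosyltransferase gene for Notch, by -1.39 ± 0.47. In aged against young epidermal cells, Ivl, a cornified envelope gene, differed by -1.64 ± 0.80. In control against young HFSCs, Rbpj differed by -1.64 ± 0.42 (limma adjusted p = 0.571). Neurl1b is not read here because its probe holds a 2-base repeat of 30 bases and hardly varied.

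The 8 members well above background on at least 10 arrays were set beside the 19195 other such genes by Pearson's r over the 12 arrays, as a description, since the arrays share cell populations and slides. The closest to Notch3 was Cdkn1a (r = 0.96), followed by Adgrf4 and Pof1b (0.96 each). Jag1 ran closest to Macf1, Selenop and Tns3 (0.97 each), Dll1 to Axin2 (0.95) and Klhl21 (0.94), and Notch2 to Camk2d, Slc19a2 and Cachd1 (0.94 each). Hes1 ran closest, among named genes, to Srsf2 (0.93), Jag2 to Grpel2 (0.92), Notch1 to 9530036O11Rik (0.94), and Lfng to Bend5 (0.86), the loosest of the 8.

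Among the members, Notch3 and Jag1 ran opposite over the 12 arrays (r = -0.88) and within the 8 HFSC arrays (-0.75). Jag2 and Dll1 ran together (0.81 over the 12 and 0.60 within HFSCs). The sign of Notch3 with Dll1 turned, from 0.31 over all arrays to -0.83 within HFSCs. Notch1 went with Hes1 at 0.64 and 0.58, and Hes1 with Nrarp, a pathway gene that is not a member, at 0.76 and 0.75. Hey1, well above background on 9 arrays, and Hey2 were not placed.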

How the data were processed

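The authors deposited scanner files of 12 arrays, which per the file headers come from Agilent Feature Extraction 10.7.3.1 (processed intensity, background-subtracted and detrended, with flags per spot), and a value table. Per the labels' protocols, 1-10 ng of RNA was amplified before labelling. From the deposited intensity, outlier and control spots were left out and the log2 intensity, relative to the 75th percentile of its array, was averaged over spots of one probe. A gene was its probe of highest mean level, tested where 2 or more arrays of the fit had it well above background. Fits used limma 3.58.1 in R 4.3.3 (lmFit, eBayes), with Benjamini-Hochberg adjustment over all genes at 0.05, and were tested on simulated data. Of 55681 probes, 28026 were named through RefSeq accessions, the rest as in the files.

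The terms were mouse type and plucking (8 HFSC arrays), population and age (6 arrays) and age and population (4 epidermal arrays). With 1 array per group, these fits take the spread from arrays of different mouse types or populations, so p-values measure only that spread, which may be technical, and the number of arrays limits precision. A fold where every array of 1 side was not well above background is a bound, set against the higher of the probe's own signal and the lowest signal well above background on each array. The deposited log2 value table of the authors has each probe centred on a median of 0. Its processing is not given in the sources used here, but its columns follow the log2 intensities scaled to the 75th percentile with each probe centred in the same way (r of at least 0.9999, slopes of 0.999 to 1.001 and median differences of -0.02 to 0.03). Its column medians are 0.02, -0.14, -0.02 and 0.08 for young HFSCs, plucked HFSCs, total epidermis and IFE, -0.01, 0.02, 0.13 and -0.01 for the same aged samples, -0.02 and -0.20 for control unplucked and plucked, and 0.16 and -0.15 for cKO unplucked and plucked. Alternatives were normexp background correction (offset 50) with quantile scaling, scaling to the median, other filters, the mean over probes, that table and leaving out pairs of arrays.

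The members and lists were chosen with earlier results of these data known. All 10 members are described on every array. Of the pathway lists, each gene past the threshold is named, with examples from the 5 of largest difference per comparison that went one way in every pair and were well above background throughout 1 side; some of these are not reported here. Mki67, Col17a1, Hes5 and the second probes were added after their values were seen. Sequences are from the scanner files and RefSeq.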

Additional observations from a re-analysis of the deposited data

Results flagged for a closer look

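Notch3 differed in opposite directions with age in HFSCs and in epidermal cells. The aged minus young values averaged 1.02 in HFSCs (1.16 unplucked and 0.88 plucked) and -0.32 in epidermal cells (-0.11 in IFE and -0.52 in total epidermis). The difference between the 2 was not tested.

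Hey1 was higher in cKO than control HFSCs, by 0.91 on average (1.20 unplucked and 0.62 plucked), and lower in aged than young HFSCs, by -2.41 on average (-1.12 unplucked and -3.70 plucked, the last with the aged array not well above background). The difference between the 2 was not tested.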

How the results depend on the processing

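The 127 genes past the threshold in plucked against unplucked HFSCs became 1120 with normexp correction and quantile scaling, 273 with the mean over probes, 22 with no filter on dim genes, 559 where a gene had to be well above background on every array of 1 side, and 0 within slide 1, within slide 2 and (an alternative chosen after seeing the data) without the unplucked control and cKO arrays. Leaving out 1 pair gave 0 to 0. For IFE against HFSCs the 1134 genes became 605 with no filter and 1819 with the filter on every array of 1 side. For total epidermis against HFSCs the 933 became 1421 with normexp, 327 with no filter and 1521 with the filter on 1 side. IFE against total epidermis, with 0, gave 3 with normexp, 5 with the mean over probes and 31 with the filter on 1 side. In the age, cKO, control and plucking-response comparisons limma called 0 under every alternative run.

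Of 746 recomputed values for the Notch genes, 646 moved by less than 1 SE, 89 by more, and 11 passed the threshold. Those 11 were Hes1 after plucking (1.54 with normexp, adjusted p = 0.0233, and 1.74 with the filter on 1 side, 0.0439; range over all alternatives 0.0233 to 0.368), Hey1 after plucking (-1.05 with normexp, 0.0427; range 0.0427 to 0.363), in IFE Dll1 (1.90 with normexp and 2.25 with the filter), Hey1 (-3.64 with the mean over probes and with the filter) and Notch3 (2.21 with the filter), and in total epidermis Notch3 (1.68 with normexp and 2.60 with the filter) and Dll1 (1.61 with normexp). Of 305 recomputed values for the other pathway genes named, 11 gained and 7 lost the threshold, Nrarp, Dlk2 and Hdac1 after plucking gaining it with normexp (adjusted p = 0.0228, 0.0287 and 0.041). Among the Notch genes no value whose sign changed was called. Lfng after plucking, with a main difference of 0.0034, ranged from -0.66 to 0.66 over the alternatives. Scaling to the median moved the median of all genes to -0.21 in aged against young, -0.13 in cKO against control and 0.21 in control against young HFSCs. It turned the signs of Jag2 (aged, -0.19), Jag1 (cKO, -0.10), Notch3 (control, 0.13) and Notch1 (IFE against total epidermis, 0.04). Normexp correction also shrank Hey1 in total epidermis (-0.80) and IFE (-1.06) against HFSCs. No paired analysis was possible by replicate number because every group has 1 sample and all carry the number 1, so arrays were paired by mouse type or population. Dim signals limit Hey1 in IFE and in plucked aged HFSCs, Notch3 in unplucked cKO HFSCs and Hey2 on 11 arrays.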
